A study of Mus musculus with 4 samples.

Results

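The genes described are 9 genes close to Sp6 on mouse chromosome 11, with the Sp and Hoxb genes of the same stretch left out. They are Cdk5rap3, Gm11532, Scrn2, Lrrc46, Gm11533, Mrpl10, Osbpl7, Tbx21 and Tbkbp1, 9 of 45706 genes in the count table. They were chosen by position around Scrn2, which was itself selected on its high level in the Sp6 cKO and Sp6+Sp8 cKO libraries, so those Scrn2 values are given as a description. The question was whether the other 8 genes shared them. The study profiled regenerating mouse digit tips by RNA-seq at 14 days post amputation, with 1 library per genotype. The wildtype library carries batch 3 in its labels. The Sp6+Sp8 cKO, Sp6 cKO and Sp8 cKO libraries carry batch 1, where cKO stands for a conditional knockout. Tamoxifen induced the knockout, at 75 mg/kg on each of 5 days and followed by 5 days of rest, per the labels' protocols. The sources used here do not say whether wildtype mice had tamoxifen as well, and they do not name the Cre driver, strain, sex, age or number of animals behind a library. Distal and middle phalanx amputations both appear in the protocols, neither tied to these libraries.

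With 1 library per genotype there was no replicate check, and no difference was tested. Each ratio therefore compares 2 libraries. Against wildtype, batch and knockout cannot be told apart, whereas the 3 cKO libraries share batch 1. Levels are CPM, read counts relative to the TMM-scaled library total, and log2 ratios carry a prior count of 2. A gene was called higher or lower when its log2 ratio was at least 1 in size, it reached a CPM of 1 in either library, and the 95% interval of its ratio excluded 1. A gene is called measured in a comparison when it met that CPM minimum. For the lists of genes by family, function or cell type, measured means that the minimum was met in any library. Intervals are exact (Clopper-Pearson) and cover counting error only, so differences between animals, batches and library preparations are left out. PCR copies of a molecule were counted as separate reads, which can make the intervals too narrow even for counting error.

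Library totals were 21834910 estimated counts for wildtype, 13054861 for the Sp6 cKO, 12588518 for the Sp8 cKO and 15146031 for the Sp6+Sp8 cKO. A count of 3 corresponded to 0.138 CPM in the wildtype library and to between 0.195 and 0.238 CPM in the cKO libraries. The epidermal keratins Krt5, Krt14, Krt10 and Krt1, 4 nail and hair keratins and bone genes were present in all 4 libraries. Skeletal muscle markers summed to between 1 and 6 counts. The 4 nail and hair keratins were all lower in the Sp6+Sp8 cKO library than in the Sp8 cKO library. Their part in the values below was not tested.

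Sp6, also called epiprofin, and Sp8 are zinc-finger transcription factors of the Sp family that act in limb bud ectoderm, and Sp6 is also known for its roles in tooth and hair. Sp factors bind GC boxes, short GC-rich motifs found in many promoters. Genes that lie side by side can share regulatory sequence, and a deletion or an inserted recombination site can alter transcription of the genes next to it as well as of the targeted gene. Reads from overlapping genes on opposite strands can be told apart only when the counting uses strand.

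All positions are on GRCm38 with GENCODE M21 annotation. Sp6 occupies chr11:97013394-97024734 on the plus strand. Upstream of it, Cdk5rap3 (chr11:96907426-96916496, minus strand) lies 96.9 kb from the Sp6 start. Gm11532 (chr11:97020508-97026248, minus strand) is a noncoding processed transcript that overlaps Sp6 from the opposite strand. Scrn2 (chr11:97029938-97033958, plus strand) begins 5.2 kb past the Sp6 end. Lrrc46 (chr11:97034602-97041407, minus strand) lies 9.87 kb past that end, and its intron at chr11:97036517-97038771 holds the processed pseudogene Gm11533 (chr11:97037007-97037483, plus strand). Mrpl10 (chr11:97041560-97049213, plus strand) follows at 16.83 kb, Osbpl7 (chr11:97050628-97068904, plus strand) at 25.89 kb, Tbx21 (chr11:97098071-97115331, minus strand) at 73.34 kb and Tbkbp1 (chr11:97136171-97151495, minus strand) at 111.44 kb.

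The sequences below show where the members that were called higher meet those that were not, and the start regions of a pair of members that were not called on either side of Sp6. Lrrc46 and Mrpl10 are transcribed away from each other, and the stretch between their annotated starts, chr11:97041408-97041559 read on the plus strand, is 152 bases long. The other sequences are the 250 bases before the RefSeq start of Cdk5rap3 (chr11:96916515-96916764, minus strand) and of Tbx21 (chr11:97115332-97115581, minus strand). All come from RefSeq's GRCm38.p6 tables and are written 5′ to 3′, with capitals marking a GC box, GGGCGG or its reverse complement CCGCCC.
Lrrc46 to Mrpl10: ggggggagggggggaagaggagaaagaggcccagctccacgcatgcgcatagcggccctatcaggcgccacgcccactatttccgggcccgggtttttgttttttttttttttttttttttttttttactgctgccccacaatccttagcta
Cdk5rap3: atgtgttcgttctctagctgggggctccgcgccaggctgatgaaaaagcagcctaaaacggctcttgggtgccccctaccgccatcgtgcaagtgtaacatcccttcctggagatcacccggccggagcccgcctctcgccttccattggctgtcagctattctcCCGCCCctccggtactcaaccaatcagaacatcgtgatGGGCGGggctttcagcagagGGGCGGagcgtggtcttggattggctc
Tbx21: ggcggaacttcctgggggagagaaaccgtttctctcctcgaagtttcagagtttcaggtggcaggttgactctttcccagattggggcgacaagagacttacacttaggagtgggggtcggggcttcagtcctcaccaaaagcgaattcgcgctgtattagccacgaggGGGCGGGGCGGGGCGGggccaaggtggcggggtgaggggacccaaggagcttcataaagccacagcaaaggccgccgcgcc
The Cdk5rap3 window holds 3 GC boxes, the Tbx21 window holds 3 that overlap at their ends, and the stretch between Lrrc46 and Mrpl10 holds 0. Start windows were matched for 5 of the 9 genes, namely Mrpl10, Osbpl7, Tbx21, Tbkbp1 and Cdk5rap3. They were not matched for Scrn2, Lrrc46, Gm11532 and Gm11533. Of the 5 matched genes, 3 have a GC box in a window, Cdk5rap3, Tbx21 and Tbkbp1. Counted by window, 5 of their 7 windows hold one. Over all genes 32.7% of 32851 windows of the same length hold one, a share per window in which a gene with several starts counts more than once. The windows of Mrpl10 and Osbpl7 hold 0. A match is a run of letters in the window and says nothing about binding.

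The targeted genes were read first. Sp6 stood at 97.7 CPM in the wildtype library, 29.2 in the Sp6 cKO, 95.6 in the Sp8 cKO and 57.8 in the Sp6+Sp8 cKO. Sp8 stood at 63.9, 66.1, 16.8 and 13.4 CPM in the same order. Sp8 was lowest in the libraries whose label names it. For Sp6 the same order held in the counts assigned to it, which depend on a division of reads with Gm11532 described next, and the sum of both genes was highest in the Sp6+Sp8 cKO library at 136 CPM. Assigned Sp6 in the Sp6+Sp8 cKO library was at a log2 ratio of -0.76 to wildtype, short of the size needed for a call. In bulk tissue, fewer cells that express a gene and less RNA of it per cell cannot be told apart.

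Gm11532, the noncoding transcript opposite Sp6, was higher in the libraries with Sp6 knockout. Its level was 16.9 CPM in the wildtype library, 65.9 in the Sp6 cKO, 14.2 in the Sp8 cKO and 77.9 in the Sp6+Sp8 cKO. The libraries fell into a high and a low pair, and the low pair held the libraries without Sp6 knockout. The Sp6 cKO to wildtype ratio was 3.89 (3.44 to 4.41) and the ratio to the Sp8 cKO library 4.64 (3.94 to 5.48). The Sp6+Sp8 cKO ratios were 4.60 (4.09 to 5.19) to wildtype and 5.48 (4.68 to 6.45) to the Sp8 cKO library.

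Those values depend on how reads were divided between Gm11532 and Sp6. The genes share 3329 bases of exon, and the whole Sp6 coding sequence of 1128 bases lies inside Gm11532's exons. Only 512 of Sp6's 3841 exonic bases lie outside Gm11532. The estimated counts of both genes had fractional parts, yet their sums were whole to within 0.01 in 4 of 4 libraries, at 2493 counts in the wildtype, 1227 in the Sp6 cKO, 1383 in the Sp8 cKO and 2088 in the Sp6+Sp8 cKO library. Reads were thus divided between genes on opposite strands, and the values of either gene alone are uncertain.

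The same was seen beyond this locus. Of 1340 opposite-strand gene pairs with overlapping exons and fractional counts in the wildtype library, 73.1% summed to a whole number, and the share was between 74.8% and 76.7% in the cKO libraries. Among same-strand overlapping pairs it was between 15.6% and 18.4%. The library protocol marks strand, but the sources used here give no strand setting for the counting.

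Taken as 1 unit, Sp6 and Gm11532 together stood at 115 CPM in the wildtype library, 95.1 in the Sp6 cKO, 110 in the Sp8 cKO and 136 in the Sp6+Sp8 cKO. No comparison of the sum was called. The share given to Gm11532 was 14.8% in the wildtype library and 12.9% in the Sp8 cKO, against 69.3% in the Sp6 cKO and 57.4% in the Sp6+Sp8 cKO. The libraries differed more in how the pair's counts were divided than in their sum. The summed level was lower than in wildtype in the Sp6 cKO library (log2 ratio -0.27) and higher in the Sp6+Sp8 cKO (0.24).

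**Figure D1:**
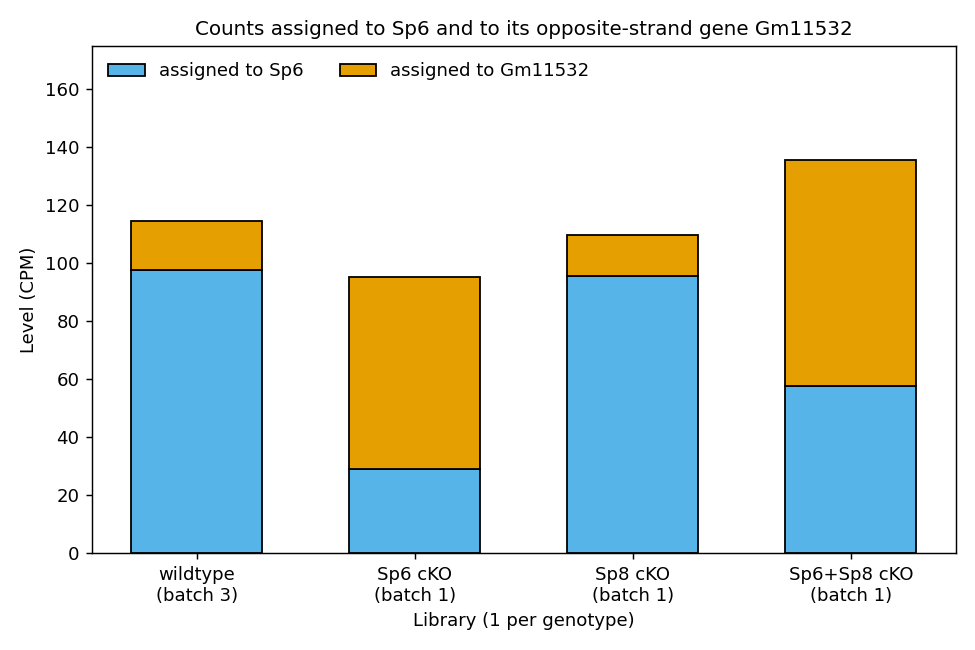
Stacked bars give the CPM assigned to Sp6 (blue) and to Gm11532 (orange) in each of the 4 libraries, 1 per genotype. The full bars run from 95.1 to 136 CPM, while the Gm11532 share is 14.8% and 12.9% in the wildtype and Sp8 cKO libraries and 69.3% and 57.4% in the Sp6 cKO and Sp6+Sp8 cKO libraries.

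Scrn2 encodes secernin 2, of a peptidase-like family named after the part of its founding member in secretion. It had 51 counts in the wildtype library, 392 in the Sp6 cKO, 49 in the Sp8 cKO and 607 in the Sp6+Sp8 cKO, or 2.35, 30.4, 3.89 and 39.5 CPM. The high and low pairs were the same as for Gm11532. These are the values the gene list was drawn from, and as a description the Sp6 cKO to wildtype ratio was 13 (9.66 to 17.7) and the Sp6+Sp8 cKO to wildtype ratio 16.8 (12.6 to 22.8).

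Within batch 1, Scrn2 was 7.81-fold higher (5.80 to 10.7) in the Sp6 cKO library and 10.1-fold higher (7.57 to 13.9) in the Sp6+Sp8 cKO library than in the Sp8 cKO library. The Sp6+Sp8 cKO library exceeded the Sp6 cKO by 1.30-fold (1.14 to 1.48), and the Sp8 cKO exceeded wildtype by 1.66-fold (1.10 to 2.50), neither of them enough for a call. By log2 ratio Scrn2 ranked 19 of 14288 protein-coding genes in the Sp6 cKO to wildtype comparison and 553 of 14286 in the Sp8 cKO to wildtype comparison. Because Scrn2 was selected on its Sp6 cKO and Sp6+Sp8 cKO levels, the folds over the Sp8 cKO and the rank of 19 are description only. Scrn2 has no overlapping exon partner in the annotation and no close copy, since its longest match to another gene's transcript was to Scrn3, at 67.6% identity over 414 bases. The other secernins did not differ to this extent. Scrn1 lay between 5.72 and 7.46 CPM and Scrn3 between 13.8 and 14.7 CPM, and no comparison of either was called.

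Lrrc46 encodes a leucine-rich repeat protein needed for the sperm flagellum. It was near the limit of detection, with 4 counts in the wildtype library, 9 in the Sp6 cKO, 6 in the Sp8 cKO and 25 in the Sp6+Sp8 cKO. Only the Sp6+Sp8 cKO library, at 1.62 CPM, reached 1 CPM. Lrrc46 was called higher there than in wildtype (8.83-fold, 3.05 to 34.9), than in the Sp8 cKO (3.41-fold, 1.37 to 10.2) and than in the Sp6 cKO (2.33-fold, 1.05 to 5.67). The wide intervals reflect the low counts. The Sp6 cKO to wildtype ratio of 3.79 (1.06 to 16.9) rested on 9 and 4 counts and was below the CPM minimum. No other gene of a list of 13 motile cilium genes was called higher in any comparison, beside 1.35% to 2.84% of all genes. Of the 4 measured, Cfap43 lay between 22.6 and 26.6 CPM, and Dnaic2, with 7 counts in the Sp6+Sp8 cKO library and 17 in the Sp6 cKO, was lower.

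Gm11533, the processed pseudogene in the Lrrc46 intron, had 5 counts in the wildtype library, 25 in the Sp6 cKO, 0 in the Sp8 cKO and 25 in the Sp6+Sp8 cKO. Its high and low pairs were again those of Scrn2. Against wildtype the ratios were 8.43 (3.17 to 28.2) for the Sp6 cKO and 7.07 (2.66 to 23.6) for the Sp6+Sp8 cKO. Against the Sp8 cKO library, with a floor of 3 counts in that library, they were at least 8.14-fold and at least 6.82-fold higher.

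The Gm11533 counts are uncertain for another reason than those of Gm11532. The pseudogene matches Rpl29, a ribosomal protein gene, at 96.0% over all 477 of its bases, and 14 other genes, Rpl29 among them, match it at 95% or more over at least 100 bases. Rpl29 stood at 81.9 CPM in the wildtype library, 218 in the Sp6 cKO, 243 in the Sp8 cKO and 217 in the Sp6+Sp8 cKO. Rpl29 was thus high in the Sp8 cKO library, where Gm11533 had 0 counts. The part of misassigned Rpl29 reads in the Gm11533 values was not tested.

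**Figure D2:**
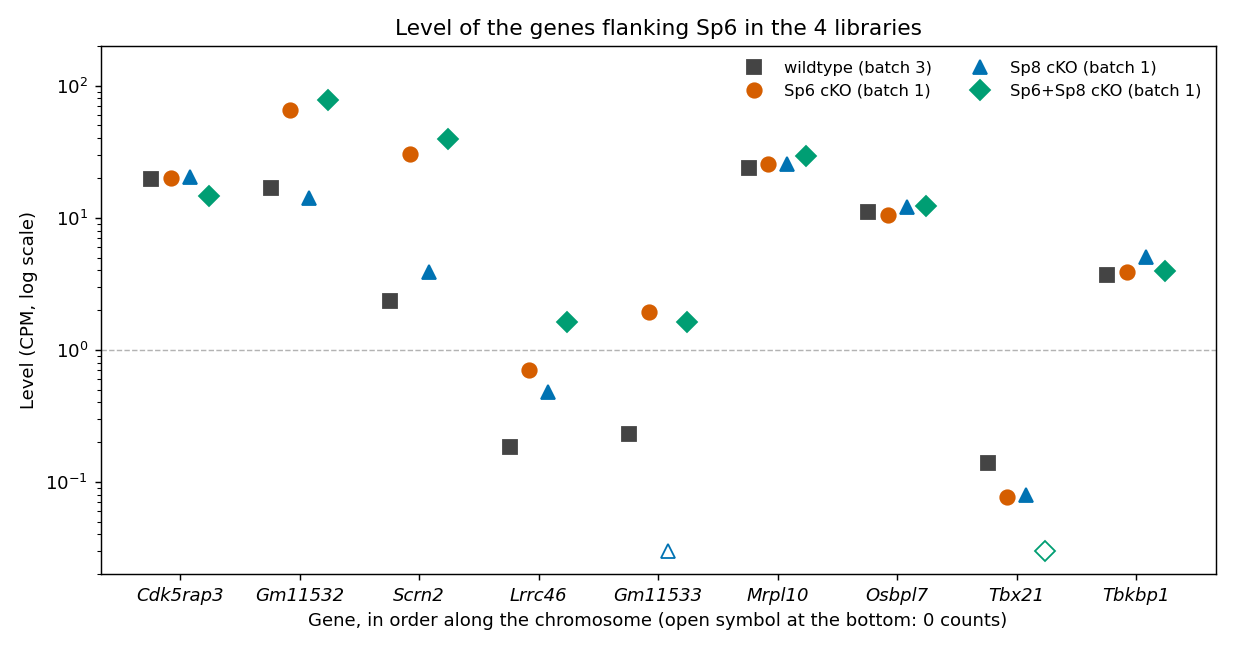
Each symbol is the level of 1 gene in 1 library, in CPM on a log axis, with the 9 genes in their order along the chromosome, squares for wildtype and circles for the Sp6 cKO, triangles for the Sp8 cKO, diamonds for the Sp6+Sp8 cKO and open symbols at the bottom for 0 counts. Gm11532, Scrn2 and Gm11533 separate the libraries with Sp6 knockout from the others, Lrrc46 is highest in the Sp6+Sp8 cKO, and Mrpl10, Osbpl7 and Tbkbp1 stay close together in all 4 libraries.

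From Mrpl10 outward no member was called in any comparison. Mrpl10, a protein of the large mitochondrial ribosomal subunit, stood at 23.9 CPM in the wildtype library, 25.4 in the Sp6 cKO, 25.6 in the Sp8 cKO and 29.2 in the Sp6+Sp8 cKO. The 4 libraries differed little, and the largest log2 ratio, Sp6+Sp8 cKO to wildtype, was 0.29 (1.22-fold, 1.08 to 1.39). Mrpl10 shares 240 exonic bases with the opposite-strand Gm11574, and adding that gene's counts moved the Sp6 cKO to wildtype log2 ratio from 0.09 to 0.12. Of 48 genes of the large mitochondrial ribosomal subunit, all measured, 0 were called in any of the 6 comparisons. Between 1.35% and 2.95% of all genes were called per direction and comparison, so nothing is read from the 0. The list's median log2 ratio in the Sp6 cKO to wildtype comparison was -0.06.

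Osbpl7 encodes an oxysterol-binding protein relative, a family of lipid carriers between membranes. It had 240 counts in the wildtype library, 136 in the Sp6 cKO, 153 in the Sp8 cKO and 190 in the Sp6+Sp8 cKO, which put its level between 10.5 and 12.3 CPM. All 6 of its ratio intervals included 1, and the Sp6 cKO to wildtype ratio was 0.955 (0.768 to 1.18). Between libraries with and without Sp6 knockout, a change to the extent seen for Scrn2 lies outside the Osbpl7 interval of the same comparison. Of the 12 family members, all measured, 0 were called in any comparison, beside 1.35% to 2.95% of all genes per direction.

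Tbkbp1 encodes an adaptor of the kinase TBK1 in innate immune signalling. It stood at 3.68 CPM in the wildtype library, 3.88 in the Sp6 cKO, 5.08 in the Sp8 cKO and 3.96 in the Sp6+Sp8 cKO. The Sp8 cKO library was highest, and the interval of its ratio to wildtype, 0.978 to 1.94, included 1. None of the 12 genes of the TBK1 signalling list was called in any comparison, beside 1.35% to 2.95% of all genes per direction.

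Tbx21 encodes T-bet, the transcription factor of type 1 helper T cells and natural killer cells. It had 3 counts in the wildtype library, 1 in the Sp6 cKO, 1 in the Sp8 cKO and 0 in the Sp6+Sp8 cKO. All 4 values are at or under the floor of 3 counts, so no ratio is given, and a change of Tbx21 was not detectable at this depth. Among 17 genes of the T-bet programme, 3 were measured. Il2rb, a chain of the interleukin 2 receptor, stood at 0.598, 3.33, 0.873 and 2.34 CPM in the order wildtype, Sp6 cKO, Sp8 cKO, Sp6+Sp8 cKO, and was called higher than wildtype in the libraries with Sp6 knockout. Il12rb2, a chain of the interleukin 12 receptor, stood at 13.9, 29.5, 31.9 and 45.1 CPM and was called higher than wildtype in all 3 cKO libraries. Il18r1, the last of the 3, lay between 2.30 and 3.57 CPM and was not called in any comparison. Ifng, Gzma and Xcl1 had 0 counts in every library.

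Summed markers of T and NK cells were highest in the libraries in which Scrn2 was high, though not every marker followed. The 10 markers summed to 11.3 CPM in the wildtype library, 32.3 in the Sp6 cKO, 17.0 in the Sp8 cKO and 29.2 in the Sp6+Sp8 cKO. Of 7 measured, 5 were called higher than wildtype in the Sp6 cKO, 3 in the Sp8 cKO and 5 in the Sp6+Sp8 cKO. The shares of all genes called higher were 2.24%, 2.27% and 2.84%. Trdc, the constant region of the delta chain of the T cell receptor, had 18, 106, 35 and 115 counts in the same order of libraries. By contrast, Trac was highest in the Sp8 cKO library, at 1.03 CPM, and Klrb1c in the wildtype library, with 6 counts. Cd247 differed little, between 7.22 and 9.23 CPM. Whether these cells contributed to the levels of the 9 genes was not tested.

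Cdk5rap3, on the far side of Sp6, encodes an adaptor of the ligase that attaches the small modifier UFM1. It had 424 counts in the wildtype library, 258 in the Sp6 cKO, 255 in the Sp8 cKO and 225 in the Sp6+Sp8 cKO, or 14.6 CPM in the Sp6+Sp8 cKO and between 19.5 and 20.2 CPM in the others. The Sp6+Sp8 cKO library alone was low, with log2 ratios of -0.41 to wildtype (1.33-fold lower, 1.13 to 1.57), -0.47 to the Sp8 cKO and -0.45 to the Sp6 cKO. None reached the size needed for a call, though all 3 intervals excluded 1. Of the 8 UFMylation genes measured, 0 were called in any comparison, beside 1.35% to 2.95% of all genes per direction. In the Sp6+Sp8 cKO to wildtype comparison Ufm1 itself had a log2 ratio of -0.40 and Ufl1, the ligase, stood at 36.4 CPM against 32.9.

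Counting all 9 genes, 7 were measured in the Sp6 cKO to wildtype comparison and 3 were called higher, against 2.24% of the 16884 genes measured there. In the Sp6+Sp8 cKO to wildtype comparison 4 of 8 were called higher, against 2.84% of all genes. Against the Sp8 cKO library, 3 of 7 were called higher in the Sp6 cKO (1.35% of all genes) and 4 of 8 in the Sp6+Sp8 cKO (1.88%). The list was drawn up from these contrasts, so nothing is read from the counts. The called genes were Scrn2, Gm11532 and Gm11533, joined by Lrrc46 in the Sp6+Sp8 cKO library.

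In the Sp8 cKO to wildtype comparison 0 of 6 were called higher, beside 2.27% of all genes, and in the Sp6+Sp8 cKO to Sp6 cKO comparison Lrrc46 was the only one of 8, beside 1.89%. None of the 9 was called lower in any comparison. The shares of all genes called lower were 2.16% in the Sp6 cKO, 1.55% in the Sp8 cKO and 2.95% in the Sp6+Sp8 cKO against wildtype, 1.75% and 2.8% in the Sp6 cKO and Sp6+Sp8 cKO against the Sp8 cKO, and 2.08% in the Sp6+Sp8 cKO against the Sp6 cKO. The median log2 ratio of the measured members was 0.09 in the Sp6 cKO to wildtype and 1.24 in the Sp6+Sp8 cKO to wildtype comparison, and 0.08 and 0.29 with Scrn2 left out. Over all genes the medians were -0.01 and -0.02. With Gm11532 added to Sp6, a choice made after seeing the data, the called members numbered 2 in the Sp6 cKO and 3 in the Sp6+Sp8 cKO, against wildtype and against the Sp8 cKO alike.

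**Figure D3:**
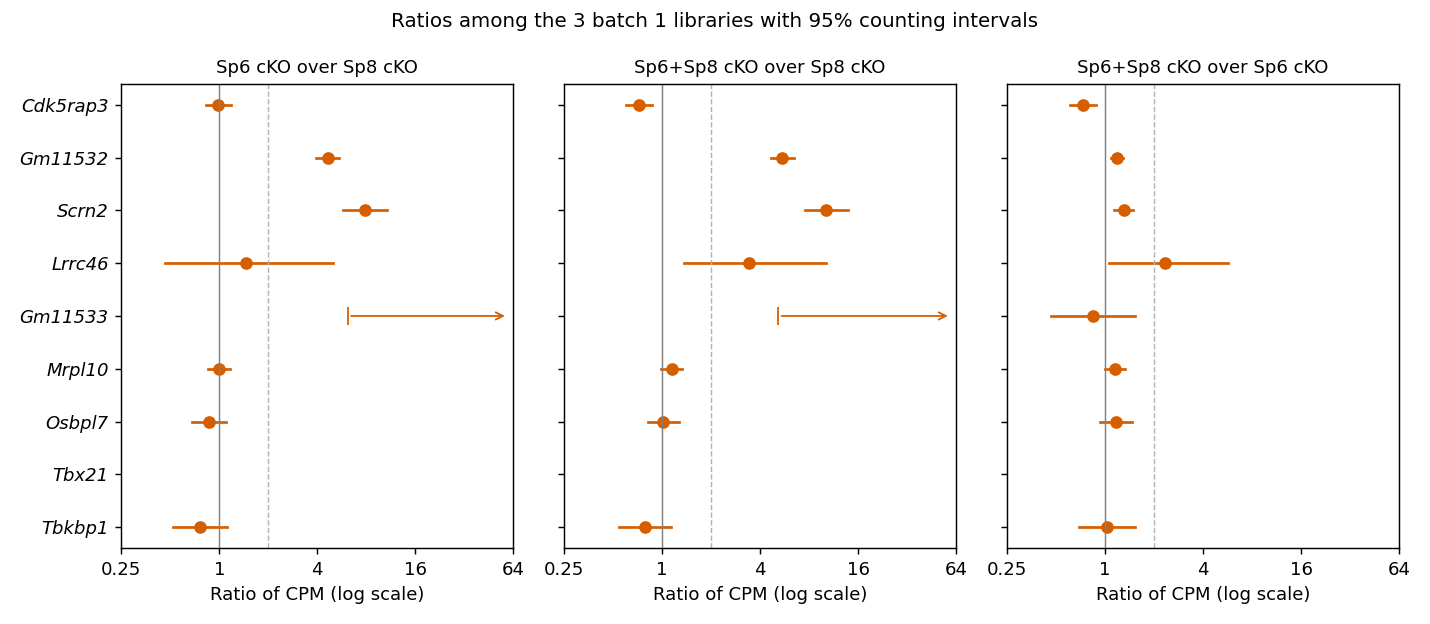
Points are CPM ratios on a log axis for the 9 genes in the 3 comparisons among batch 1 libraries, with bars for 95% counting intervals. The solid line marks a ratio of 1 and the dashed line a ratio of 2. Gm11533 against the Sp8 cKO library, which had 0 counts, is drawn as an open-ended interval from its lower limit, and Tbx21 is not drawn. Scrn2 and Gm11532 lie well above 2 against the Sp8 cKO in both other libraries and near 1 against each other.

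The called members were neighbours on the chromosome, in a list itself chosen by closeness to Sp6. The near edges of all 4 lay within 12.27 kb past the Sp6 end or inside Sp6, and no member from Mrpl10, at 16.83 kb, to Tbkbp1, at 111.44 kb, was called, nor was Cdk5rap3 upstream. Of the 4, Scrn2 was the gene the list was drawn around, and Lrrc46 was called only in the Sp6+Sp8 cKO library, on 25 counts. Gm11532 was not called when summed with Sp6, and Gm11533 has 14 close copies among other genes. A rise shared across the stretch is therefore uncertain. Mrpl10 starts close beside Lrrc46, across the 152-base stretch printed above. A window of 500 kb to either side of Sp6, Sp and Hoxb genes aside, held 41 genes, of which 32 were outside the 9. Of those 32, 18 were measured in the Sp6 cKO to wildtype comparison, and 0 were called.

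Other genes of that window were called in the remaining 5 comparisons. Against wildtype, 1 of 18 was lower in the Sp8 cKO (1.55% of all genes), and in the Sp6+Sp8 cKO 1 of 17 was higher (2.84%) and 1 lower (2.95%). Among the batch 1 libraries, those called higher were 1 of 17 in the Sp6 cKO (1.35%) and 2 of 17 in the Sp6+Sp8 cKO (1.88%) against the Sp8 cKO, and 1 of 17 in the Sp6+Sp8 cKO against the Sp6 cKO (1.89%). These calls fell on 4 genes. In the Sp6+Sp8 cKO, Gm11583 was higher than in wildtype (log2 ratio 1.21) and than in the Sp6 cKO (1.05, 2.12-fold, 1.45 to 3.13), and Gpr179 was lower than in wildtype (-1.14, 6 counts against 22). D030028A08Rik, a noncoding transcript 48.33 kb upstream of Sp6, was lower in the Sp8 cKO than in wildtype (-1.07) and higher than in the Sp8 cKO in the Sp6 cKO (1.56) and Sp6+Sp8 cKO (1.84). Gm11537 was higher in the Sp6+Sp8 cKO than in the Sp8 cKO (1.03). Gm11583 overlaps Kpnb1 and Gm11537 overlaps Snx11 on the opposite strand, and in both pairs the counts summed to whole numbers in 4 of 4 libraries. D030028A08Rik had fractional counts and shares 227 exonic bases with Cdk5rap3 on the opposite strand. The levels of these 3 transcripts carry the same doubt as Gm11532's. Abundant genes of the window were not called, with Kpnb1, a nuclear import factor, between 143 and 155 CPM and Npepps, an aminopeptidase, between 98.6 and 105 CPM.

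**Figure D4:**
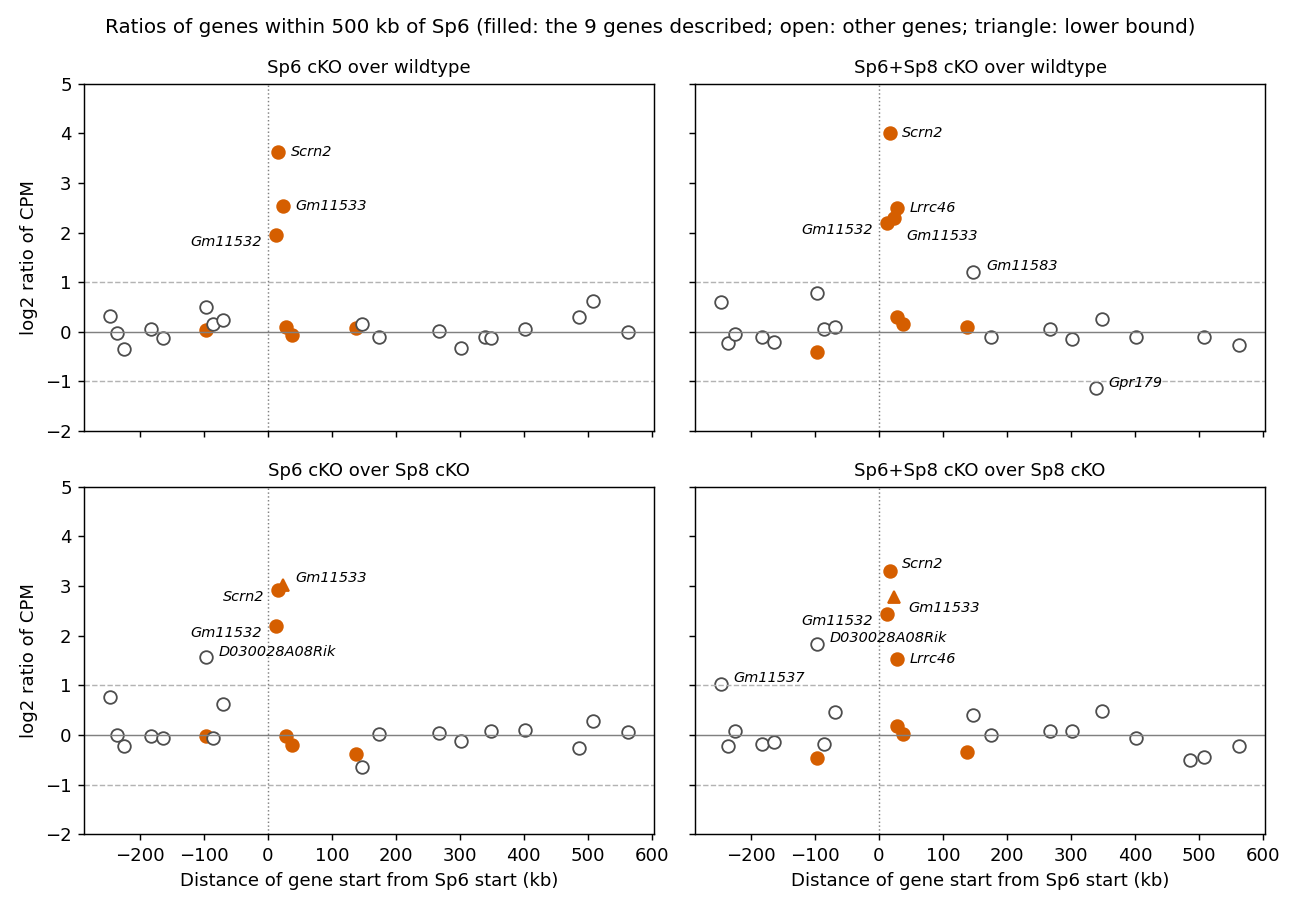
Each symbol is a measured gene within 500 kb of Sp6, placed by the distance of its start from the Sp6 start in kb, with its log2 CPM ratio on the vertical axis. Filled symbols are the 9 genes, open symbols other genes, triangles lower bounds for Gm11533 against 0 counts, and dashed lines mark log2 ratios of 1 and -1. High ratios stand just downstream of Sp6, and genes farther out on both sides lie mostly between the dashed lines.

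The genes beside Sp8 were read in the same way, because Sp8 was the other targeted locus. The table held 6 genes within 500 kb of Sp8, of which 4 were measured in each comparison with wildtype. In each of these comparisons 1 was called higher, beside 2.24% to 2.84% of all genes, and 1 lower, beside 1.55% to 2.95%. Abcb5, a membrane transporter, had 6 counts in the wildtype library, 14 in the Sp6 cKO, 58 in the Sp8 cKO and 73 in the Sp6+Sp8 cKO. It was thus highest in the libraries with Sp8 knockout, with log2 ratios to wildtype of 3.55 in the Sp8 cKO and 3.59 in the Sp6+Sp8 cKO, and of 1.59 in the Sp6 cKO. Against the Sp6 cKO library the Sp6+Sp8 cKO library was 4.37-fold higher (2.45 to 8.39). The pseudogene Gm6768 had 54, 2, 0 and 10 counts and was called lower than wildtype in all 3 cKO libraries. Its estimated counts were fractional, at 54.041 in the wildtype, 1.575 in the Sp6 cKO and 10.34 in the Sp6+Sp8 cKO library. Close copies of Gm6768 were not sought, so its values are uncertain. Itgb8 and Macc1 were not called in any comparison.

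Finally, the protein-coding genes with the profile most like Scrn2 were sought over the whole table, by the Euclidean distance of centred log2 CPM over the 4 libraries. Among 14510 genes the nearest were Il17a, at a distance of 0.81, Trpc2 at 0.93, Apol7e at 1.00, Serpinb3c at 1.01 and St6galnac1 at 1.12. Next came Defb3, Ankk1, Gm2004, Sprr2f and Serpinb3d, up to 1.43. Il17a, a cytokine, had 0, 15, 0 and 13 counts in the order wildtype, Sp6 cKO, Sp8 cKO, Sp6+Sp8 cKO, and the serpin Serpinb3d had 97, 222, 78 and 456. Of these 10 genes 1 is on chromosome 11, and the 10 spread over 8 chromosomes. By the same measure Gm11532 lay at 1.43, Gm11533 at 1.63 and Lrrc46 at 2.06 from Scrn2. Mrpl10, Osbpl7, Tbkbp1 and Cdk5rap3 lay between 3.35 and 3.75, and no distance is given for Tbx21 because of its low counts. Scrn2 was selected on its levels in these libraries, so all distances are description only. That of Gm11532 also depends on the division of reads with Sp6. The profile rests on 4 libraries. Several of the 10 nearest genes had 0 counts in the wildtype library, where the prior count of 2 bears on the distance.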

How the data were processed

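The members and gene lists were chosen with earlier results of these data known. Per the labels' protocols, dUTP strand-marked libraries from poly-A RNA were read as 150 bp paired ends. The authors deposited estimated counts per gene, not scaled for depth, for 45706 genes in 4 libraries. Per the submitters' processing notes, the tools were Salmon, STAR, featureCounts, Trim Galore 0.6.4, deepTools and edgeR, with no roles given, and the build was GRCm38. The sources used here do not give the annotation release or the strand setting of the counting. The table's 1 further column was not used. Between 84.6% and 87.1% of the values in a library were whole numbers.

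Estimated counts were rounded and scaled by TMM in edgeR 4.0.16 (R 4.3.3). Ratios, exact intervals and the size rule are defined in the text and were tested on simulated data with counting error only. Fold changes were set only in genes well above the CPM minimum. Changes near that minimum and differences between animals or batches were therefore not covered. The rule for named genes was the 9 members, the 10 protein-coding profiles nearest to Scrn2, the called genes within 500 kb, and examples from each list. Transcripts were compared with blastn 2.17.0. Alternatives were DESeq2 1.42.0 size factors, library totals with and without the 20 most abundant genes, a prior count of 0.5, unrounded counts, no filter, a CPM of at least 5, at least 1.5-fold, and overlapping genes counted together.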

Additional observations from a re-analysis of the deposited data

How the results depend on the processing

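The members' log2 ratios kept their direction and their call in all 270 values computed under 3 other scalings, a prior count of 0.5 and unrounded counts. Filters and the fold size were varied for the counts of calls. With a CPM of at least 5, the members called higher numbered 2 in the Sp6+Sp8 cKO to wildtype and 2 in the Sp6+Sp8 cKO to Sp8 cKO comparison, in place of 4 each, and 0 in place of 1 in the Sp6+Sp8 cKO to Sp6 cKO comparison, since Lrrc46 and Gm11533 were then not measured. At 1.5-fold, 1 member, Scrn2, was called higher in the Sp8 cKO than in wildtype.

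Among the 41 genes within 500 kb, a CPM of at least 5 left 3 higher in the Sp6+Sp8 cKO to wildtype comparison (5 before), 3 against the Sp8 cKO (6 before) and 1 against the Sp6 cKO (2 before), and 0 lower in the Sp8 cKO and the Sp6+Sp8 cKO against wildtype (1 each before). Without a filter, 5 were higher and 1 lower in the Sp6 cKO than in wildtype (3 and 0 before), and 2 lower in the Sp6+Sp8 cKO. At 1.5-fold, 2 were higher in the Sp8 cKO than in wildtype, and 1 each lower in the Sp6 cKO to Sp8 cKO and Sp6+Sp8 cKO to Sp6 cKO comparisons (0 before). With library totals without the 20 most abundant genes, 0 were lower in the Sp6+Sp8 cKO than in wildtype. Counted together with Sp6, an alternative chosen after seeing the data, Gm11532 had log2 ratios to wildtype of -0.27 in the Sp6 cKO and 0.24 in the Sp6+Sp8 cKO, to the Sp8 cKO of -0.21 and 0.31, and of 0.51 between the Sp6+Sp8 cKO and Sp6 cKO. No paired analysis was possible because each genotype has 1 library, and for that reason no replicate could be left out. Depth limits Tbx21, Lrrc46 and Gm11533, none of which exceeded 25 counts.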
